A study of Mus musculus with 12 samples.

Results

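The genes described here encode 43 nucleolar factors of ribosome assembly, chosen as a list of symbols and found through the gene identifiers of the deposited tables. The list was chosen with earlier results of these data known, so the shares of members called are descriptions. All 43 were present among 50686 genes per library, and 42 of them had enough counts to be tested with 17754 genes in all. Wdr74, a factor of large subunit maturation, had 2 to 12 counts in each library and was not tested. An unnamed gene on the same strand, ENSMUSG00000110423.1, covers 90.71% of the exon bases of Wdr74 in the annotation, so its reads may have been left unassigned.

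The libraries came from reporter-positive, B220-positive B cells sorted from mouse spleen. B220 is the B cell form of the surface protein CD45. YC mice (n = 3) were normal controls of genotype YFPstopF/+ Cg1Cre/+, and their sorted cells carried the yellow reporter YFP. BIC mice (n = 3) carried Blimp1F/F IKK2castopF/stopF Cg1Cre/+, so that Blimp1 was floxed and an active form of the kinase IKK2 lay behind a floxed stop cassette. pBIC mice (n = 6) carried floxed p53 (p53F/F) together with the BIC alleles, and the sorted cells of both BIC and pBIC carried the green reporter GFP. The labels name BIC and pBIC as lymphoma models of the kind called ABC-DLBCL. The Cre, which all 3 groups share, is driven from the IgG1 constant region and acts in B cells that transcribe it, as germinal centre B cells do. The deleted and activated alleles are thus limited to cells with a history of that transcription. Age and sex are not in the labels. The pBIC comparisons with YC and with BIC use the same pBIC libraries, and the comparisons of BIC and pBIC with YC use the same YC libraries, so that their values are given side by side and are not independent.

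Ribosomes are built largely in the nucleolus. RNA polymerase I transcribes the ribosomal RNA precursor there, small nucleolar ribonucleoproteins (snoRNPs) guide its methylation and pseudouridylation, and separate sets of factors fold, cut and export the small and the large subunit. Growing and dividing cells raise this work, which makes it a read-out of growth in activated B cells and in B cell lymphoma. When assembly is disturbed, free ribosomal proteins of the large subunit bind the ubiquitin ligase Mdm2 and stabilise p53.

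Total counts per library ran from 33127283 to 47067627. Levels are given as CPM, counts scaled to a common library total after edgeR's TMM scaling. Trp53, which encodes p53, was at 72.1 to 208.5 CPM in YC and BIC and at 16.2 to 32.0 CPM in pBIC, in the direction of its labels. The B cell receptor gene Cd79a was found in every library, at 931 to 1180.0 CPM in YC, 1270.0 to 1456 CPM in BIC and 161 to 1175 CPM in pBIC. Markers of other cells differed between libraries. The summed level of 13 neutrophil genes was 969 CPM in BIC 1, 1602 CPM in BIC 2 and 66.7 CPM in BIC 3, against 2.98 to 296 CPM in YC and 6.05 to 86.2 CPM in pBIC. The transcript Xist marked all BIC libraries and Y-linked Ddx3y marked all YC libraries. Xist also marked pBIC 2, 4 and 5, and Ddx3y marked pBIC 3 and 6. Only low levels of both were seen in pBIC 1. Hence sex and genotype cannot be told apart between BIC and YC. In bulk samples, fewer cells of a type and less RNA per cell cannot be told apart.

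The ribosome assembly genes rose together in pBIC. Against YC, 39 of the 42 tested genes were higher in pBIC and 0 were lower, with a median log2 fold change of 1.33, while 11.8% of all tested genes were called higher and 10.2% lower, and the median of all genes was 0.10. No member was lower at an unadjusted p under 0.05 either, and DESeq2 likewise called 39 higher and 0 lower. In 37 of the 42 genes every pBIC library lay above every YC library, as it did in 12.9% of all genes. No member had all pBIC libraries below all YC libraries, against 13.2% of all genes. Against BIC, 37 of 42 were higher in pBIC and 0 were lower, by edgeR and by DESeq2, with a median of 1.23 against 0.09 for all genes. The background there was 10.9% of genes called higher and 8.78% lower. All 6 pBIC libraries lay above all 3 BIC libraries for 33 members, against 11.7% of all genes, and below them for 0, against 9.9%.

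Between BIC and YC, edgeR called 0 of 42 members higher and 1 lower, with 3.9% of all genes called higher and 4.97% lower. At an unadjusted p under 0.05, 6 members were higher and 1 was lower, and DESeq2 called 2 higher and 1 lower. The median log2 fold change of the members was 0.16, against 0.01 for all genes. The groups did not overlap for 9 members that were higher and 2 that were lower in BIC, which is no larger a share than the 21.9% and 23.2% of all genes. In this comparison a miss is not a sign of equal levels, since the BIC libraries also differed among themselves. BIC 1, 2 and 3 had 9, 26 and 31 of the 42 members above every YC library, with median log2 differences from the YC mean of -0.15, 0.23 and 0.39. The share of all genes above every YC library was not counted for single libraries, so these counts only describe the members. A fit on the BIC and YC libraries alone called 4 members higher, Polr1a, Nle1, Nhp2 and Nop16. Simulated data were made for pBIC against YC only, and most changes of log2 1 in size were missed there. Far fewer genes were changed in them than were called in the real data, so the share missed does not carry over to the real fits. A gene that was not called may still differ.

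**Figure D1:**
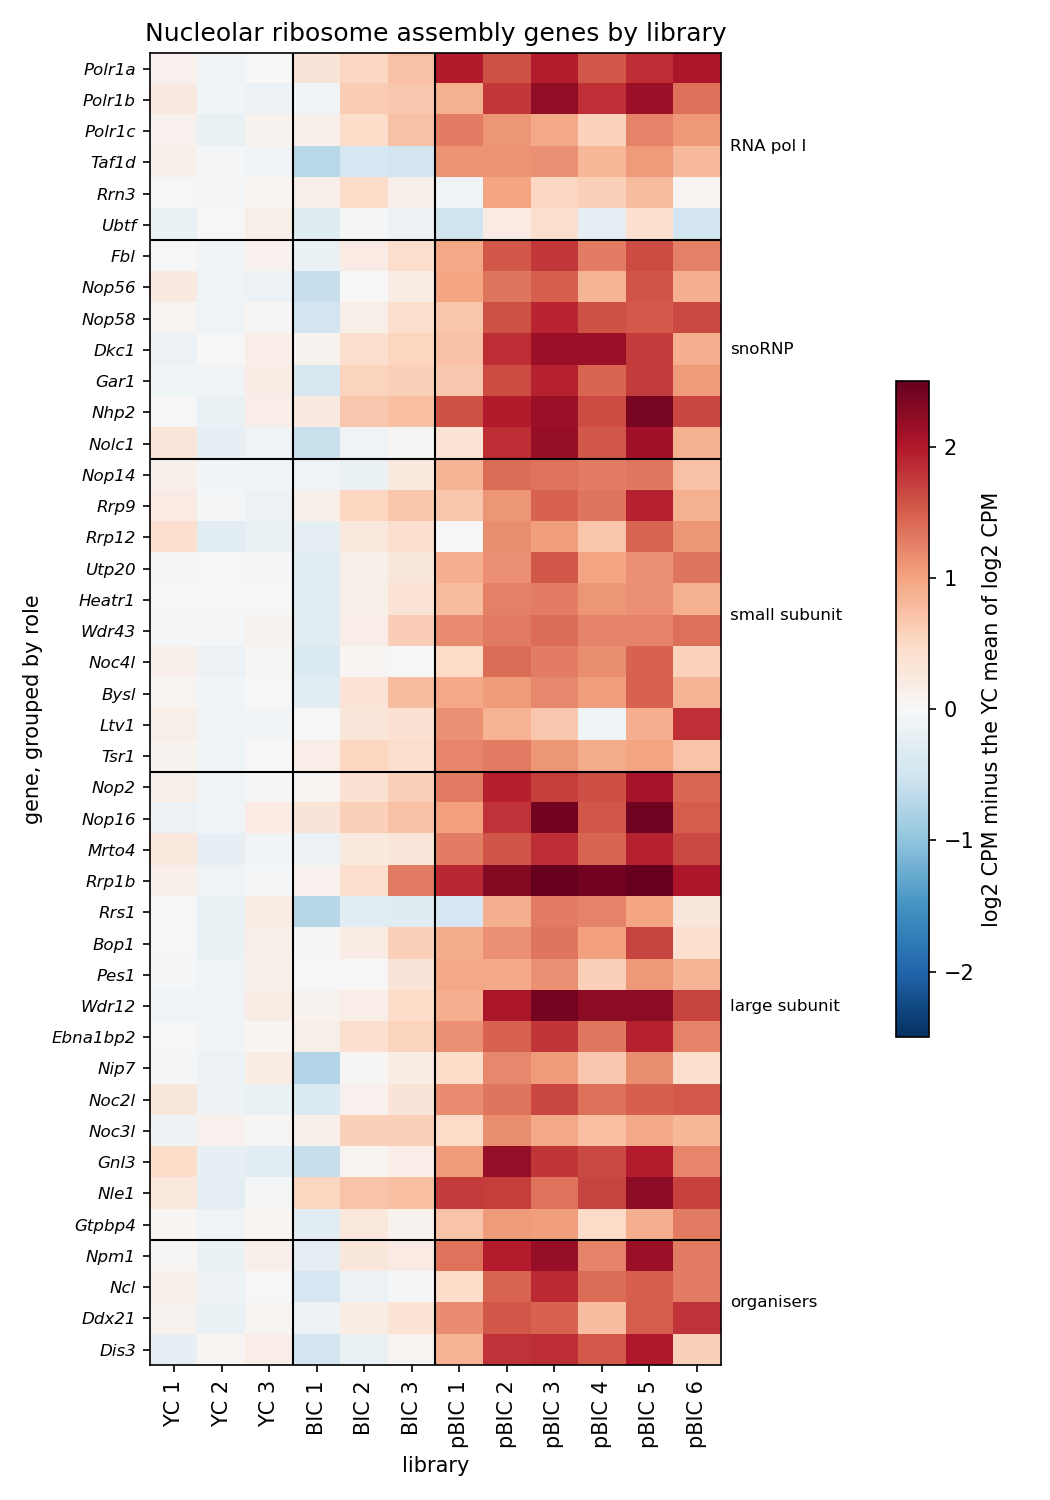
Level of each of the 42 tested ribosome assembly genes (rows, grouped by role) in each of the 12 libraries (columns), as log2 CPM minus the mean of the 3 YC libraries, with red above and blue below that mean. The 6 pBIC columns are red in nearly every row, Ubtf and Rrn3 stay pale, and BIC 1 is the bluest column.

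Over all 42 genes together, pBIC stood apart. The members summed to 5111, 4474 and 4937 CPM in YC 1 to 3, to 4072, 5309 and 5771 CPM in BIC 1 to 3, and to 9137, 13710, 15750, 11240, 14790 and 11140 CPM in pBIC 1 to 6. Thus they took 0.447% to 0.511% of the scaled counts in YC and 0.914% to 1.575% in pBIC. The lowest pBIC library, number 1, lay above the highest BIC library. BIC 1 held the lowest BIC value for 41 of the 42 members and BIC 3 the highest for 33. Within pBIC, library 1 was the lowest for 26 members, and libraries 1 and 6 both lay below the other 4 for 23. None of these counts of lowest and highest libraries was made over all genes. Whether they are particular to the members was therefore not tested. The highest library exceeded the lowest by a median of 1.21-fold in YC, 1.44-fold in BIC and 1.81-fold in pBIC. Input names in the headers of the count tables mark pBIC 1 to 3 as pBICh and pBIC 4 to 6 as pBICl, terms that the labels do not explain. Only Taf1d and Tsr1 separated these sets without overlap. The share of all genes that did so was not counted, so this is not read as a trait of the members.

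Promoters of the members are shown because the genes moved together. Windows of 300 bases, from 250 before to 50 after each start site, came from RefSeq on GRCm38.p6 and were present for 38 of the 43 members. A set of 5 motifs was searched on both strands, with overlapping matches allowed, after counts of several motifs in these promoters had been seen, so the shares are descriptions. The E-box CACGTG, the letters bound by Myc and related factors, was found in 8 members, or 21.1%, and in 8.09% of 27025 genes with a window. CCGGAAGT, an ETS-type motif, was in 28.9% of members and 4.31% of all genes, and the GC-box GGGCGG in 78.9% and 38.2%. CCAAT was in 31.6% of members and 41.1% of all genes, and TATAAA in 5.26% and 15.7%. The median GC content was 60.7% in the members' windows and 52.7% in all windows, a difference that these counts do not take into account. The genes with a window also include genes that were not tested here. A gene with several windows was counted when any of them held the motif. The E-boxes, in capitals within up to 30 bases of the gene's own strand, were the following.
Nop2, chr6:125131811-125131840, plus strand: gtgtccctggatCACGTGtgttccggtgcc
Rrn3, chr16:13780472-13780501, plus strand: gagcgccaaggtCACGTGcacacgcctcta
Rrn3, chr16:13780639-13780668, plus strand: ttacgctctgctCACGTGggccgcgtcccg
Pes1, chr11:3963965-3963994, plus strand: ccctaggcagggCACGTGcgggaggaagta
Wdr43, chr17:71616220-71616249, plus strand: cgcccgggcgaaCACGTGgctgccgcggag
Nle1, chr11:82908355-82908384, minus strand: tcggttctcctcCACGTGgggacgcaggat
Tsr1, chr11:74898092-74898121, plus strand: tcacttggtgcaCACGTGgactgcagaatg
Ltv1, chr10:13193092-13193121, minus strand: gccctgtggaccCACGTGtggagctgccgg
Utp20, chr10:88826765-88826789, minus strand: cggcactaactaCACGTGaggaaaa

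The first base of the E-box lay 60 bases before the start site in Nop2 and 215 and 48 bases before it in Rrn3. In the other 6 genes it lay 3 to 38 bases after the start. Of these 8 genes, Rrn3 was the one with a pair of E-boxes and the one not called higher in pBIC against YC. Upstream windows of 250 bases are printed for 4 genes picked after their values were seen: Nop2, which rose and holds an E-box, Rrn3, which was not called, and Polr1a and Ncl, which rose and hold none. Capitals mark CACGTG, CCGGAAGT and GGGCGG on either strand.
Nop2, chr6:125131633-125131882, plus strand: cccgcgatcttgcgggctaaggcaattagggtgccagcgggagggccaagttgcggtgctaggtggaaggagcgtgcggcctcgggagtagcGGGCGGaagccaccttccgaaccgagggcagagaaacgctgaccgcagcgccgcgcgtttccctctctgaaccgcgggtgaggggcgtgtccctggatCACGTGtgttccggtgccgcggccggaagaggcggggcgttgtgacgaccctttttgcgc
Rrn3, chr16:13780449-13780698, plus strand: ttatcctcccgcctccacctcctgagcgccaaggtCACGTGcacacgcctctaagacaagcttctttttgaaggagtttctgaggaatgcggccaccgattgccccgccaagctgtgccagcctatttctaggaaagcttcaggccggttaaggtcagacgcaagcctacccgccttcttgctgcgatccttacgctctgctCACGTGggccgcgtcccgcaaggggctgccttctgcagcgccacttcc
Polr1a, chr6:71908803-71909052, plus strand: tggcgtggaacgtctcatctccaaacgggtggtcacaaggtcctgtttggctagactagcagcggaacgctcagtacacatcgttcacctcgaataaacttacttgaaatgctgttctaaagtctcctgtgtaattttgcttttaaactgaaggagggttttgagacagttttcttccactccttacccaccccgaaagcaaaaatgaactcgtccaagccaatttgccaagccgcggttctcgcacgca
Ncl, chr1:86359456-86359705, minus strand: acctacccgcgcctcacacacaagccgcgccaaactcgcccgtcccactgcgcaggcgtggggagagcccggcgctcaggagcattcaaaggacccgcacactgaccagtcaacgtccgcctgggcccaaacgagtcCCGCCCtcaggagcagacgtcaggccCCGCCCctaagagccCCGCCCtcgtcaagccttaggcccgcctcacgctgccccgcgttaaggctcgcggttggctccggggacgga

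Among the RNA polymerase I members, the listed enzyme subunits rose in pBIC and 2 initiation factors were not called. Of 6 genes, 4 were higher in pBIC against YC and against BIC. Polr1a (chr6:71909053-71984935, plus strand, GRCm38), which encodes the largest subunit of the polymerase, was at 94.8, 82.7 and 87.4 CPM in YC 1 to 3 and at 111, 127 and 146 CPM in BIC 1 to 3. In pBIC it ran from 258 CPM through a median of 330.3 to 361.5 CPM. The 3 groups did not overlap. Its log2 fold change was 1.84 against YC (SE 0.17, adjusted p = 8.15e-05) and 1.30 against BIC (SE 0.16, adjusted p = 0.000856), both from edgeR's quasi-likelihood test with Benjamini-Hochberg adjustment, as for all adjusted p-values given here. The BIC level was 0.54 above YC on the log2 scale (SE 0.18, adjusted p = 0.0848). That difference was called by DESeq2, with an adjusted p of 0.0411, and the edgeR adjusted p ran from 0.0199 to 0.163 over the other alternatives that kept all libraries of both groups.

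Polr1b, another core subunit, was at 35.7 to 46.1 CPM in YC, 38.1 to 63.5 CPM in BIC and 74.0 to 184 CPM in pBIC, with a log2 fold change of 1.76 against YC (SE 0.30, adjusted p = 0.00198). Polr1c, a subunit shared with RNA polymerase III, rose by 1.05 against YC (SE 0.19, adjusted p = 0.00287). Its rise of 0.60 against BIC had overlapping groups, and that call ended when any library other than BIC 3 or pBIC 4 was left out.

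Taf1d was the member called in all 3 comparisons, and it moved in both directions. The gene (chr9:15306214-15316991, plus strand) encodes a subunit of SL1, the promoter selectivity factor of RNA polymerase I. It was at 125, 109.8 and 109 CPM in YC, at 70.2, 83.7 and 82.2 CPM in BIC, and between 199.8 and 251 CPM in pBIC with a median of 243 CPM. BIC lay below YC and pBIC above both, without overlap. In BIC it fell by 0.54 on the log2 scale against YC (SE 0.16, adjusted p = 0.0498). That call sat at the threshold, and it was lost when any 1 YC or BIC library or any of pBIC 2, 3, 5 and 6 was left out, with adjusted p-values of 0.0467 to 0.184 over all libraries left out in turn. Against YC and BIC its rise in pBIC was 1.02 (SE 0.14, adjusted p = 0.000699) and 1.56 (SE 0.14, adjusted p = 0.000429). Other genes, small nucleolar RNAs among them, overlap 13.6% of its exon bases, and 1 other gene holds a near-identical stretch.

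The initiation factors Ubtf and Rrn3 gave other patterns. Ubtf binds ribosomal DNA and opens its chromatin. Its levels of 255, 290.3 and 319 CPM in YC and 231, 279 and 259.6 CPM in BIC lay within the pBIC range of 204.5 to 391 CPM, whose median was 285 CPM. The log2 fold change of pBIC against YC was 0.02 (SE 0.23, adjusted p = 0.953), the smallest among the members, with pBIC 2, 3 and 5 high and pBIC 1, 4 and 6 low. Rrn3, which carries the polymerase to the promoter, was at 55.9 to 60.4 CPM in YC and 55.0 to 115 CPM in pBIC. Its value was 0.53 (SE 0.22, adjusted p = 0.107), and it passed the test once pBIC 1 was left out, with an adjusted p of 0.0365.

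**Figure D2:**
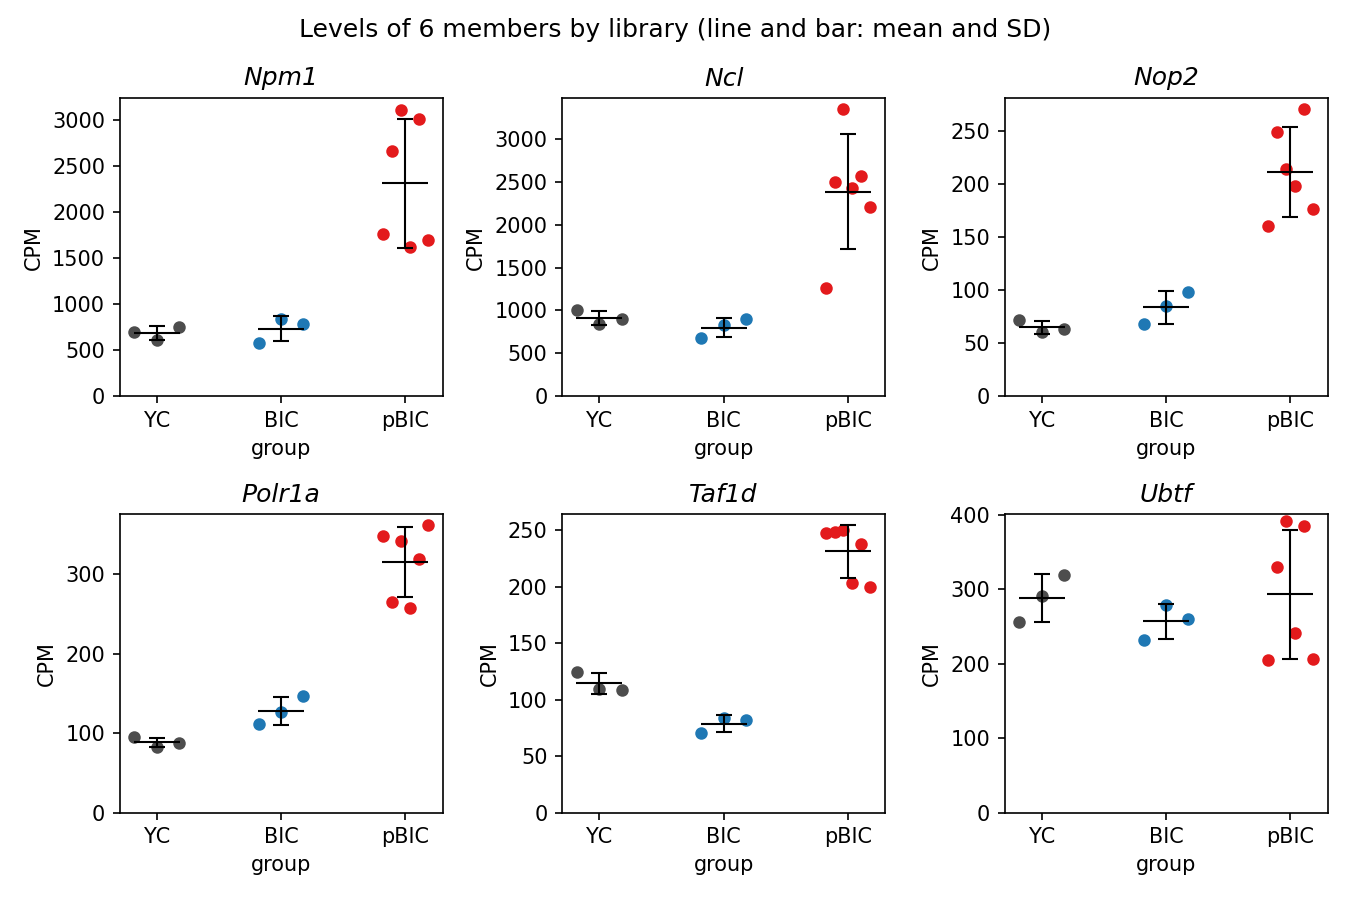
Level in CPM (vertical axis, from 0) of 6 members in YC (grey, n = 3), BIC (blue, n = 3) and pBIC (red, n = 6), with 1 point per library and the mean and SD as lines. The red points lie above all others for Npm1, Ncl, Nop2, Polr1a and Taf1d and mix with them for Ubtf, and the 3 blue points of Taf1d lie below the grey ones.

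The snoRNP genes rose throughout. All 7 were higher in pBIC in both comparisons, with medians of 1.54 against YC and 1.34 against BIC, and no pBIC library fell within the range of either group. Fbl encodes fibrillarin, the methyltransferase of box C/D snoRNPs. Its level was 105, 99.4 and 113 CPM in YC, 94.6, 122.5 and 144.5 CPM in BIC and 208 to 362 CPM in pBIC. The log2 fold change was 1.43 against YC (SE 0.21, adjusted p = 0.00093) and 1.25 against BIC (SE 0.20, adjusted p = 0.00248). Its partners in the same particle, Nop56 and Nop58, rose by 1.21 (SE 0.23) and 1.54 (SE 0.26) against YC.

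Nhp2, a core protein of the box H/ACA particles that guide pseudouridylation, rose most within the group against YC, while Nolc1 did against BIC. Nhp2 was at 42.8, 38.5 and 48.4 CPM in YC, at 50.6, 68.3 and 72.7 CPM in BIC and at 129 to 221.5 CPM in pBIC, and the 3 groups did not overlap. Its log2 fold change was 1.92 against YC (SE 0.22, adjusted p = 0.000298) and 1.35 against BIC (SE 0.21, adjusted p = 0.00219). The pseudouridine synthase Dkc1 and its partner Gar1 rose by 1.69 and 1.47 against YC, and their calls against BIC ended without BIC 1 or BIC 2. Nolc1, a chaperone that binds both kinds of particle, spread most widely here. It was at 117 to 166 CPM in YC, 92.1 to 139 CPM in BIC, and 175 CPM in pBIC 1 against 615 CPM in pBIC 3. The log2 fold change of Nolc1 was 1.61 against YC (SE 0.38, adjusted p = 0.0107), a call that ended without YC 2 or YC 3, and 1.80 against BIC (SE 0.38, adjusted p = 0.00785), a call that ended without BIC 1.

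Factors of the small subunit rose by similar amounts. All 10 were higher in pBIC against YC, with log2 fold changes from 0.94 to 1.29 and a median of 1.11, and 8 of 10 were higher against BIC, with a median of 0.91. Wdr43, Utp20 and Heatr1 belong to the processome that assembles on the nascent precursor. Wdr43 was at 149 to 162.5 CPM in YC, at 125, 173 and 235 CPM in BIC and at 347 to 402 CPM in pBIC, the narrowest pBIC range of any member at 1.16-fold. It rose by 1.29 against YC (SE 0.18, adjusted p = 0.000864) and by 1.08 against BIC (SE 0.18, adjusted p = 0.00283). Utp20 and Heatr1 rose by 1.19 (SE 0.18) and 1.09 (SE 0.17) against YC, from YC levels that spanned 81.0 to 84.4 CPM and 117 to 119.7 CPM. Tsr1, a GTPase-like factor of late maturation, rose by 1.05 against YC (SE 0.16, adjusted p = 0.00117) and by 0.66 against BIC. The second of these calls ended without BIC 1, and the gene Srr covers 32.32% of the exon bases of Tsr1 on the other strand.

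Ltv1 and Rrp12 overlapped between pBIC and each of the other groups, and Rrp9 between pBIC and BIC. Rrp9, a protein of the U3 snoRNP, was at 37.2 to 55.7 CPM in BIC and 55.6 to 130.2 CPM in pBIC. Its rise of 0.82 against BIC (SE 0.26, adjusted p = 0.0429) was lost when any library other than pBIC 1 and pBIC 6 was left out. Ltv1, which takes part in late steps and export of the small subunit, was at 43.7 to 51.1 CPM in YC. In pBIC 1 to 6 it was at 102, 84.9, 73.3, 43.0, 86.7 and 163 CPM, so that pBIC 4 lay below every YC library and pBIC 6 was highest, at 3.8 times pBIC 4. The log2 fold change was 0.99 against YC (SE 0.32, adjusted p = 0.0451), and leaving out any of 9 libraries, the 3 YC and 3 BIC libraries and pBIC 1, 2 and 5, ended the call. Rrp12 rose by 0.94 against YC (SE 0.30, adjusted p = 0.0394) while its groups overlapped, because pBIC 1, at 47.0 CPM, lay within the YC range of 39.3 to 63.9 CPM. Leaving out any of YC 2, YC 3, BIC 2, BIC 3 or pBIC 2, 3, 5 and 6 ended that call. Neither Ltv1 nor Rrp12 was called against BIC, with log2 fold changes of 0.76 for Ltv1 (SE 0.32, adjusted p = 0.114) and 0.81 for Rrp12 (SE 0.29, adjusted p = 0.0727).

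Large subunit factors rose in nearly every case. Of 15 tested, 14 were higher in pBIC in each comparison, with medians of 1.51 against YC and 1.24 against BIC. Rrp1b (chr17:32036100-32062865, plus strand), a nucleolar protein of large subunit processing, had the highest log2 fold change of the members against YC. It was at 48.7, 41.0 and 43.5 CPM in YC, at 47.7, 60.1 and 109.7 CPM in BIC and at 163 to 249.7 CPM in pBIC, with a pBIC median of 227 CPM. BIC 3 stood well above BIC 1, and the pBIC libraries exceeded all others. The log2 fold change was 2.28 against YC (SE 0.27, adjusted p = 0.000325), which is 4.86-fold, and 1.57 against BIC (SE 0.26, adjusted p = 0.00267).

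Nop2 (chr6:125131909-125144753, plus strand), an RNA methyltransferase of the large subunit, was at 71.8, 60.1 and 63.1 CPM in YC, at 67.8, 84.7 and 98.5 CPM in BIC and at 160.1 to 270.1 CPM in pBIC. Its rise was 1.70 against YC (SE 0.20, adjusted p = 0.000345) and 1.34 against BIC (SE 0.20, adjusted p = 0.00169). Mrto4, which holds the place of the stalk protein on the immature subunit, rose by 1.62 (SE 0.19, adjusted p = 0.000325) and 1.49 (SE 0.19, adjusted p = 0.000938). Nle1, a factor that helps release assembly proteins, was at 20.2 to 28.4 CPM in YC, 34.5 to 39.8 CPM in BIC and 60.4 to 111 CPM in pBIC, 3 separate ranges. Its rise in pBIC was 1.75 against YC (SE 0.20, adjusted p = 0.000288) and 1.09 against BIC (SE 0.19, adjusted p = 0.00338). Its BIC level was 0.66 above YC (SE 0.21, adjusted p = 0.0753), which passed the test only without pBIC 5 among the libraries left out in turn.

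Pes1, Bop1 and Wdr12 form 1 complex in large subunit assembly, and all 3 rose against YC, by 0.94 (SE 0.15), 1.13 (SE 0.25) and 1.99 (SE 0.29). Against BIC they rose by 0.83, 0.85 and 1.74. The call of Bop1 against YC ended without YC 2. Against BIC it ended without any of YC 2, YC 3, BIC 1, BIC 2, pBIC 2 and pBIC 3. Rrs1, which helps bring the 5S ribonucleoprotein to the subunit, was the large subunit gene not called against YC. It was at 53.4, 48.5 and 61.2 CPM in YC, at 33.0, 44.7 and 43.7 CPM in BIC, and at 40.5, 101, 133.5, 128, 107 and 65.7 CPM in pBIC 1 to 6. BIC lay below YC without overlap, and pBIC 1 lay below YC while the other 5 pBIC libraries lay above it. The log2 fold change of Rrs1 was 0.82 against YC (SE 0.32, adjusted p = 0.0886), which passed with an adjusted p of 0.0106 once pBIC 1 was left out. Against BIC it rose by 1.24 (SE 0.33, adjusted p = 0.0221), a call that ended without any 1 BIC library. Nip7, at 0.86 against YC (SE 0.25, adjusted p = 0.0279), lost its call without any 1 YC library. Noc3l rose by 0.87 against YC (SE 0.18) and was not called against BIC, at 0.42 (SE 0.17, adjusted p = 0.108).

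**Figure D3:**
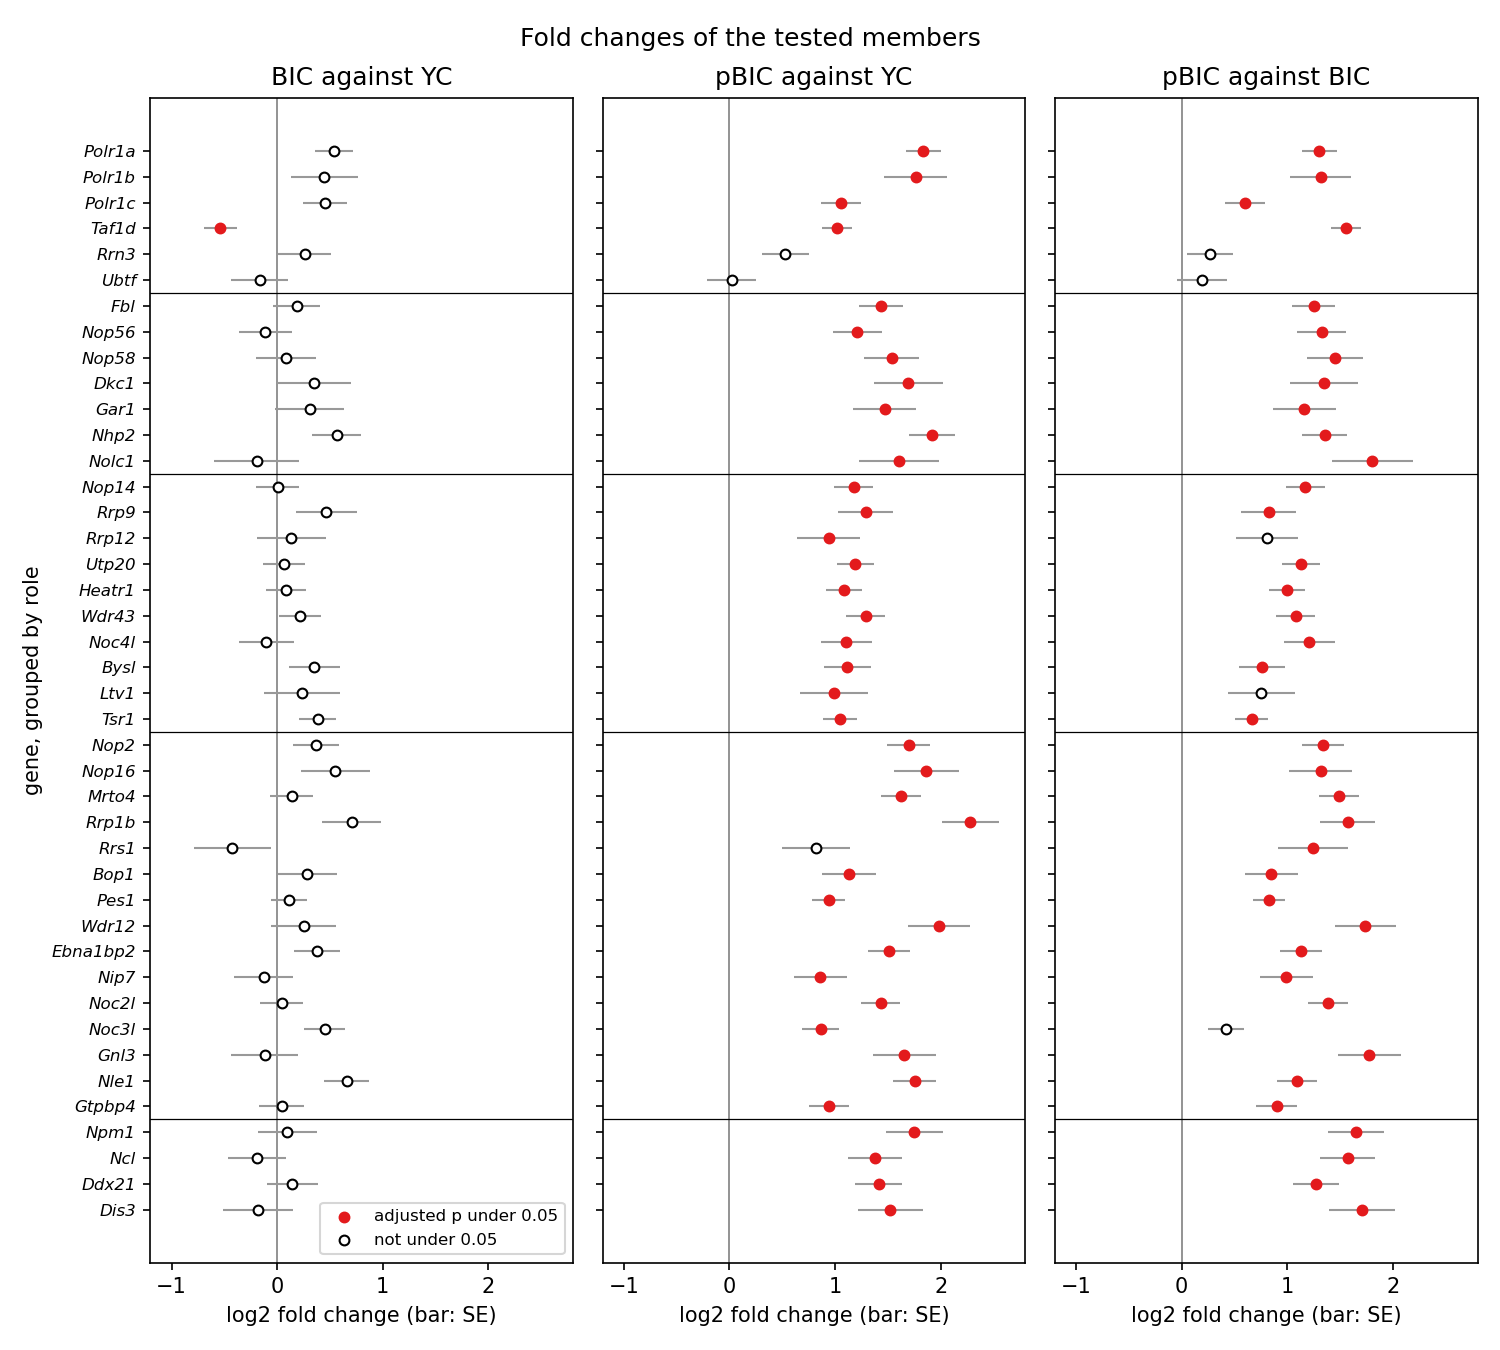
Log2 fold change (horizontal axis, bar: SE) of each tested member, with BIC compared to YC on the left, pBIC to YC in the middle and pBIC to BIC on the right, and with filled red points where the adjusted p was under 0.05. Of 42 points, 1 is filled in the left panel, at -0.54 for Taf1d, 39 in the middle panel and 37 in the right panel, all of them above 0 in the last 2 panels.

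The most abundant members included Npm1, Ncl and Ddx21 of the nucleolar organiser list, while Dis3 of that list was at place 29 in YC. Per kilobase of exon, Npm1 had the highest level of the 43 genes in YC, at 258 CPM per kb (SD 27.8, n = 3), followed by Ncl at 89.9 (SD 8.02), Gnl3 at 56.7 (SD 16.9) and Ddx21 at 56.6 (SD 5.43). Gnl3 and Ddx21 did not differ beyond their spread. In BIC, Npm1 and Ncl again led, followed by Ddx21, Nhp2 and Gnl3 at places 3, 4 and 5. The 4 genes that led in YC also led in pBIC, in the same order, at 868 (SD 261), 234 (SD 65.9), 179 (SD 51.7) and 151 (SD 34.6) CPM per kb (n = 6). There Ncl, Gnl3 and Ddx21 lay within the SD of their neighbours, while Ubtf passed from place 8 in YC to place 20 in pBIC. Npm1 (chr11:33152287-33163206, minus strand) encodes nucleophosmin, a chaperone and structural protein of the nucleolus. It was at 704, 607.5 and 753 CPM in YC, at 581, 839 and 789 CPM in BIC and at 1622 to 3115 CPM in pBIC. Every pBIC library was above every other library, and pBIC 2, 3 and 5 were higher than pBIC 1, 4 and 6. Npm1 rose by 1.75 against YC (SE 0.27, adjusted p = 0.00125) and by 1.65 against BIC (SE 0.27, adjusted p = 0.00236). It shares near-identical stretches with 5 other genes, and reads that fit several places were not counted.

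Ncl (chr1:86344719-86359400, minus strand) encodes nucleolin, which binds ribosomal RNA and its genes. It was at 1002, 839.6 and 906 CPM in YC, at 679.7, 825 and 900.4 CPM in BIC and at 1263 to 3342 CPM in pBIC, where library 1 was lowest. Its rise was 1.38 against YC (SE 0.26, adjusted p = 0.00318) and 1.57 against BIC (SE 0.26, adjusted p = 0.00258). The RNA helicase Ddx21 rose by 1.41 against YC (SE 0.22, adjusted p = 0.00141). Dis3, a ribonuclease of the RNA exosome, rose by 1.52 against YC (SE 0.31, adjusted p = 0.00513) and by 1.70 against BIC (SE 0.31, adjusted p = 0.00411).

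The rest of the pathway was followed with 115 further genes of ribosome assembly, all tested. Riok2, also listed, had no match by name. In pBIC, 77 of the 115 were higher against YC, with a median of 0.82, and 73 were higher against BIC, with a median of 0.76. Of all tested genes, 11.8% were called higher against YC, with a median of 0.10, and 10.9% against BIC, with a median of 0.09. In BIC against YC, 3.9% of all genes were called higher and 4.97% lower. Between BIC and YC the 1 gene of the 115 called was Tex10, a large subunit factor. It fell by 0.70 on the log2 scale in BIC (SE 0.19, adjusted p = 0.0425), a call that ended without any 1 YC or BIC library or pBIC 2 or 4. By role, pBIC against YC gave 29 of 37 small subunit genes higher, 28 of 44 large subunit genes, 8 of 11 snoRNP genes, 9 of 12 exosome genes and 3 of 11 RNA polymerase I genes. Wdr36 rose by 1.22 (SE 0.15), Wdr46 by 1.32 (SE 0.19) and Mphosph10 by 1.38 (SE 0.17), all of the small subunit processome. For the large subunit, Rpf2, Ftsj3 and Gnl2 rose by 1.49 (SE 0.20), 1.65 (SE 0.26) and 1.20 (SE 0.17). The snoRNP assembly ATPases Ruvbl1 and Ruvbl2 rose by 1.41 (SE 0.23) and 1.31 (SE 0.27), and the box C/D protein Snu13 by 1.11 (SE 0.24). In the exosome, Exosc2, Exosc5 and the cofactor C1d rose by 1.20 (SE 0.21), 1.30 (SE 0.19) and 0.84 (SE 0.18). The polymerase subunits Cd3eap, Polr1e and Polr1d rose by 1.63 (SE 0.29), 0.98 (SE 0.14) and 0.80 (SE 0.23), and the call of Polr1d ended without YC 1 or YC 2. Not all subunits rose, since Twistnb and Znrd1 were not called. Twistnb was at 40.9 to 53.0 CPM in YC and 28.7 to 63.0 CPM in pBIC. Znrd1 was at 30.4 to 32.9 CPM in YC and 12.3 to 31.6 CPM in pBIC.

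Genes of the link from the nucleolus to p53 did not move as 1 group. Of 5 listed, 3 were higher and 1 was lower in pBIC against YC, and 1 was higher and 1 lower against BIC. Of all tested genes, 11.8% were called higher and 10.2% lower against YC, and 10.9% higher and 8.78% lower against BIC. Rpl11, a ribosomal protein that binds Mdm2, was at 626 to 776 CPM in YC and 1090 to 1621 CPM in pBIC, a rise of 1.08 (SE 0.18, adjusted p = 0.00181). Rpl5 rose by 0.58 (SE 0.16, adjusted p = 0.0242), a call that ended without YC 1 or YC 2. Mdm2, the ubiquitin ligase and itself a p53 target, was at 150, 154 and 138 CPM in YC and at 99.1, 75.6, 52.1, 61.8, 69.4 and 142 CPM in pBIC 1 to 6. It fell by 0.82 against YC (SE 0.26, adjusted p = 0.0423) with pBIC 6 inside the YC range. The call ended without any 1 YC or BIC library, and the adjusted p ran from 0.00371 to 0.134 as libraries were left out. Mdm4, a partner of Mdm2, was at 419, 565 and 486 CPM in YC, 1045, 867.5 and 1029 CPM in BIC and 241.5 to 455 CPM in pBIC. It was 1.0 on the log2 scale higher in BIC than in YC (SE 0.25, adjusted p = 0.0308), a call that ended without any 1 YC or BIC library, and fell by 1.60 in pBIC against BIC (SE 0.21, adjusted p = 0.000963).

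Cdkn2a, which encodes p16 and the nucleolar protein Arf that restrains Mdm2, was at 1.65 to 3.69 CPM in YC and at 20.4, 40.2 and 9.26 CPM in BIC. In pBIC 1 to 5 it was at 173 to 347 CPM, and in pBIC 6 at 11.7 CPM. Its log2 fold change was 6.20 against YC (SE 1.0, adjusted p = 0.00165) and 3.17 against BIC (SE 0.84, adjusted p = 0.0218), the second with overlapping groups and lost without BIC 1 or BIC 3. The counts do not separate the p16 and Arf transcripts. Myc, a transcription factor known to drive ribosome assembly genes, was at 561, 317 and 311.5 CPM in YC, 173.5, 310.3 and 462 CPM in BIC and 381 to 1452 CPM in pBIC. It was 1.18 higher in pBIC than in YC without passing the test (SE 0.42, adjusted p = 0.0646), and 1.51 higher than in BIC (SE 0.43, adjusted p = 0.0299), a call that ended without BIC 1 or BIC 2. In pBIC 1 to 6 the Myc level was 931, 381, 1128, 1452, 615 and 885 CPM. Whether it bears on the members' levels was not tested.

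Proliferation genes did not follow the members across all groups. Summed over 26 genes such as Mki67 and the Mcm helicases, they stood at 3897 to 5604 CPM in YC, 1052 to 1931 CPM in BIC and 3347 to 6703 CPM in pBIC. Thus 24 of the 26 were lower in BIC than in YC, all 26 were higher in pBIC than in BIC, and 1 was higher in pBIC than in YC. Of all tested genes, 4.97% were called lower in BIC than in YC. The shares called higher in pBIC were 10.9% against BIC and 11.8% against YC, so the 1 gene is no larger a share than that of all genes. The members were raised over YC while the sums of the proliferation genes overlapped between pBIC and YC. In pBIC against BIC both moved, and the part of proliferation in the members' rise was not tested.

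**Figure D4:**
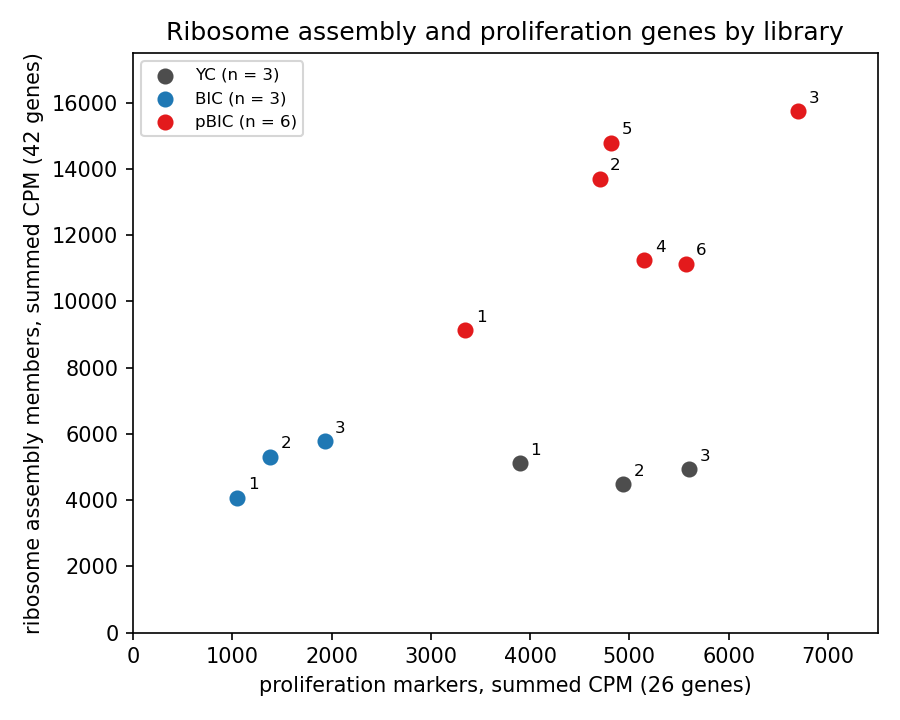
Summed CPM of the 42 tested ribosome assembly genes (vertical axis) against summed CPM of 26 proliferation genes (horizontal axis), with 1 point per library, numbered by replicate. YC and BIC lie at 4072 to 5771 CPM on the vertical axis although they differ along the horizontal one, and the pBIC points lie at 9137 CPM and above.

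Marker genes of other cells moved with the groups too. The B cell list of 9 genes had 5 lower in pBIC than in YC and 4 lower than in BIC, and its sum was 9269 to 10890 CPM in YC, 9463 to 10030 CPM in BIC and 2855 to 7662 CPM in pBIC. Of 13 neutrophil genes, 12 were lower in pBIC than in BIC and 0 were called against YC in pBIC, and S100a8 and S100a9 were detected in every library. T cell genes summed to 208 to 254 CPM in YC, 309 to 446.5 CPM in BIC and 77.0 to 215 CPM in pBIC. Of these 12 genes, 3 were lower in pBIC than in BIC and 1 was lower than in YC. Macrophage genes summed to 47.6 to 92.8 CPM in YC, 181 to 276 CPM in BIC and 16.5 to 353 CPM in pBIC. Of 11 tested, 2 were called lower in pBIC than in YC and 0 higher, yet 9 had a positive log2 fold change, with a median of 1.88. Against BIC, 1 was called lower. Of all tested genes, 10.2% were called lower in pBIC than in YC and 8.78% lower than in BIC. Of 6 plasma cell genes, 3 were lower in pBIC than in YC, and their sum was 1713 to 2034 CPM in YC, 539 to 1354 CPM in BIC and 443 to 1345 CPM in pBIC. The part of all these cell types in the members' values was not tested. Without BIC 2, the library with the most neutrophil transcript, 28 members were called higher in pBIC against BIC, with a median log2 fold change of 1.26. Without BIC 1, 24 were called higher, with a median of 1.10, against 1.23 with all libraries. Calls in either direction over all genes also dropped, from 3496 with all libraries to 1673 without BIC 2 and 1422 without BIC 1. The 13 members whose call ended without BIC 1 were Polr1b, Polr1c, Dkc1, Gar1, Nolc1, Rrp9, Bysl, Tsr1, Nop16, Rrs1, Bop1, Nip7 and Gtpbp4. Restricted to the pBIC libraries with Ddx3y, as in YC, 37 members were higher against YC, and restricted to those with Xist, as in BIC, 38 were higher against BIC.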

How the data were processed

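Raw read counts per gene were deposited by the authors, 1 table per library. Per the file headers, featureCounts 1.5.0 produced them on GENCODE M13 exons, without paired, strand or multi-mapping options, so mates were counted separately, and a gene cannot be told from an antisense partner. The submitters' processing notes name STAR, edgeR, limma and the builds mm10 and GRCm38. Symbols came from GENCODE M21 (50376 of 50686 identifiers matched).

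For testing, edgeR 4.0.16 was used under R 4.3.3: TMM factors, the default expression filter (minimum count 10), robust quasi-likelihood F tests with a coefficient for each group and all 12 libraries in 1 fit, and Benjamini-Hochberg adjustment over 17754 genes. Calls had an adjusted p under 0.05. SE is the log2 fold change over the square root of F. Alternatives included DESeq2 1.42.0, other scalings and filters, a replicate block, an Xist term, subsets of pBIC and each library left out. The sex-matched subsets were chosen after seeing the data. Near-identical stretches had at least 95% identity over 300 bases (BLAST 2.17.0, GENCODE M21 transcripts). Besides Npm1 and Taf1d, they were found for Fbl, Nop56, Bysl, Tsr1, Mrto4, Pes1, Wdr12, Noc2l, Ddx21 and Dis3. The edgeR step was tested on simulated data for pBIC against YC, where most changes of log2 1 were missed and most of the larger ones were found. Far fewer genes were changed there than were called in the real data.

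The members and lists were chosen with earlier results of these data known. Named members are, per role, the 4 with the lowest and the 1 with the highest p in pBIC against YC, those called in BIC against YC or called lower, and Npm1, Ncl and Fbl; of each further list, the 3 with the lowest p and any called lower. Other genes named, among them Dkc1, Gar1, Rrp12, Rrp9, Nop16, Pes1, Bop1, Wdr12, Nip7, Noc3l, Gnl3, Rrn3, Mdm4, Tex10 and Myc, were picked after their values were seen. The labels call the replicates separate samples of a group, and the design text counts them as mice. Total counts per library were 33127283 to 47067627.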

Additional observations from a re-analysis of the deposited data

How the results depend on the processing

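Under every setting run, 0 members were called lower in pBIC against YC or BIC. Against YC, 37 to 39 members were higher under the other scalings, filters, tools and library subsets, and 34 to 40 with 1 library left out. Against BIC the counts were 31 to 38, and 24 to 38 with 1 library left out, the lowest without BIC 1. The cause was not tested. Between BIC and YC, edgeR on those groups alone called 4 members higher, DESeq2 2 and an Xist term 1, and 0 to 1 were higher with 1 library left out. Upper-quartile factors, no low-count filter and the Xist term each called 0 members lower, and leaving out 1 library gave 0 to 1. The members' median log2 fold change in BIC against YC ran from 0.08 to 0.32 with 1 library left out.

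With a replicate block, 38 members were higher in pBIC against YC and 33 against BIC, and 0 were higher and 0 lower in BIC against YC, where the call of Taf1d had an adjusted p of 0.0692. Correlations of same-numbered libraries across groups ran from -0.09 to 0.16. Differently numbered libraries were not compared, so whether the numbers pair the samples was not settled. On all genes, calls in BIC against YC numbered 1576, and 3032 by DESeq2 and 4602 with those groups alone. Calls in pBIC against YC numbered 3914, and 1904 to 4376 with 1 library left out. Those in pBIC against BIC numbered 3496, and 1422 to 4134 with 1 library left out. The effect of depth on the tested members was not tested, and Wdr74, with 2 to 12 counts per library, was under the count minimum.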
